A study of Homo sapiens with 6 samples.

Results

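The human mitochondrial chromosome carries 37 genes, which encode 13 mRNAs, 2 rRNAs and 22 tRNAs. These genes were taken as every gene that the table of the series places on chromosome MT, and they were 37 of the 58174 genes in that table. The data came from mRNA sequencing of SiHa cells, an established line of human cervical squamous carcinoma. The cells were transfected with the plasmid GV230-BRCA1, which carries BRCA1 (OV-BRCA1 group, 3 samples), or with the empty plasmid GV230 (NC group, 3 samples), and RNA was taken after 48 h. All 6 samples were of 1 cell line that had received plasmid DNA, and untransfected cells are not analysed here. The study describes the 3 samples of each group as biological replicates.

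Mitochondrial DNA is transcribed from both strands into long precursor RNAs. In these precursors tRNAs stand between most of the other genes, and cutting at both ends of the tRNAs releases the mRNAs and rRNAs. Most of the mRNAs, with MT-ND6 as the known exception, then receive poly(A) tails, which in several of them also complete the stop codon, whereas the rRNAs carry only very short tails. The mRNAs encode core subunits of complex I, complex III, complex IV and the ATP synthase, and the rRNAs and tRNAs serve their translation inside the organelle.

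Values are FPKM, that is fragments per kilobase of transcript, scaled to the mapped fragments of the library, and here summed over the transcripts of a gene. FPKM is a share of the sample, so less mitochondrial RNA per cell and more RNA from other genes cannot be told apart, nor can fewer cells of a kind and less RNA per cell. The depth was estimated from the low values at 13.7 to 16.2 M fragments in the OV-BRCA1 samples and 15.7 to 19.3 M in the NC samples. BRCA1 (ENSG00000012048) stood at 35.7, 40.8 and 34.9 FPKM in the OV-BRCA1 samples and at 20.1, 14.9 and 21.7 FPKM in the NC samples, so the groups were separate in the direction of the labels. Of 9 markers of squamous epithelium, 6 passed the filter on low values and KRT5, KRT19 and TP63 did not, and the summed marker level was 1594 to 1742 FPKM in the OV-BRCA1 samples and 1933 to 1977 FPKM in the NC samples. The lower sum came from KRT17 (-0.48 on the log2 scale), while KRT8, KRT18 and EPCAM were higher and CDH1 did not pass. KRT6A, at 0.979 to 1.19 FPKM against 0.0278 to 0.250 FPKM, passed the filter only through the OV-BRCA1 samples. The 8 markers of blood, endothelial and liver cells summed to 23.0 to 30.5 FPKM in the OV-BRCA1 samples and 3.60 to 5.14 FPKM in the NC samples. Most of that was CD68, at 22.2 to 29.4 FPKM against 2.74 to 4.17 FPKM, while PTPRC, VWF and HBB were listed at 0 in all samples and none of the 7 markers other than CD68 exceeded 1.45 FPKM. The part of these levels in the mitochondrial results was not tested.

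The 13 mitochondrial mRNAs were all lower in the OV-BRCA1 group than in the NC group, while the small-subunit rRNA and the tRNA gene next to it were higher. The 37 genes together took 5.83%, 6.79% and 6.44% of the mapped fragments in OV-BRCA1 samples 1, 2 and 3, as implied by FPKM times length. In NC samples 1, 2 and 3 they took 8.90%, 9.50% and 8.45%. All 3 OV-BRCA1 samples were below all 3 NC samples, with means of 6.35% ± 0.484 and 8.95% ± 0.523 (SD, n = 3 each).

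Each gene was compared between the groups with limma's moderated test on log2(FPKM + 1), with Benjamini-Hochberg adjustment over all 16321 genes that had at least 0.5 FPKM in at least 3 samples. All 37 mitochondrial genes passed that filter. At an adjusted p below 0.05, 22 of them were lower in the OV-BRCA1 group, where 18.9% of all tested genes were lower. Only MT-RNR1 and MT-TF were higher, where 16.4% of all tested genes were higher, and 13 did not pass. The groups were separate in 25 genes with the OV-BRCA1 samples lower (27.4% of all tested genes) and in 2 with the OV-BRCA1 samples higher (23.4%), and they overlapped in 10, where 50.8% of all tested genes were separate in either direction. The median log2 fold change was -0.36 over the 37 genes and -0.04 over all tested genes. Only 1 mitochondrial gene was lower and 1 higher by more than 1 on the log2 scale as well, a criterion that 1.10% of all tested genes passed downwards and 2.89% upwards.

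**Figure D1:**
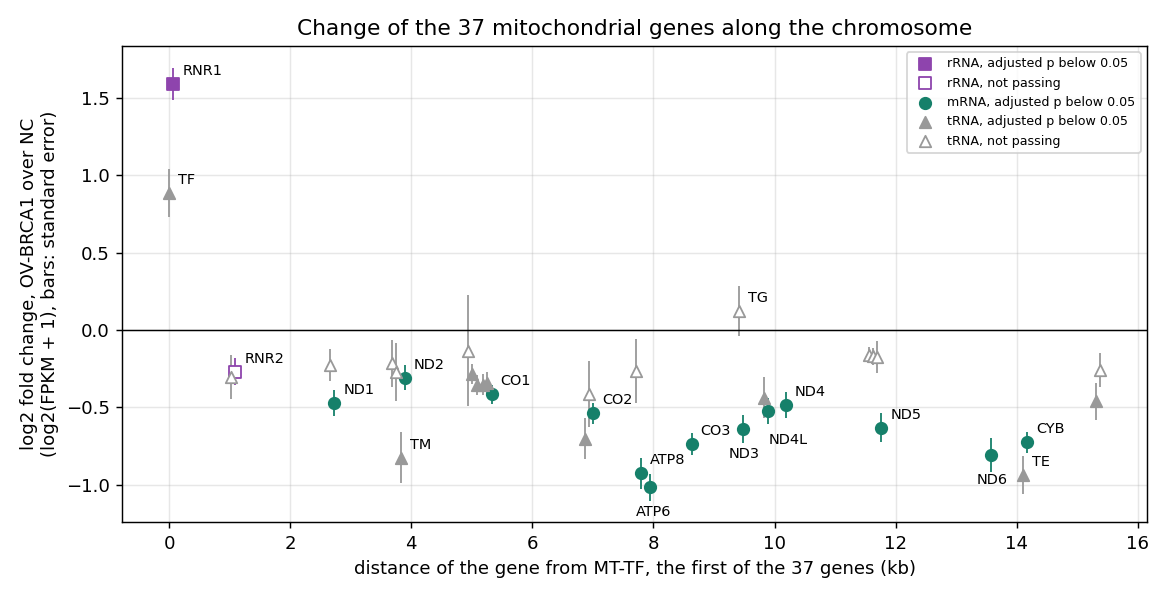
Log2 fold change (OV-BRCA1 over NC, log2(FPKM + 1) scale, bars are standard errors) of each of the 37 genes against its distance in kb from MT-TF, with squares for rRNAs, circles for mRNAs, triangles for tRNAs and filled symbols for an adjusted p below 0.05. MT-TF (0.89) and MT-RNR1 (1.59) stand above 0 at the left end, and the 13 mRNAs lie between -1.01 and -0.31.

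MT-TF and MT-RNR1, at the start of the heavy-strand transcript, gave the only rises that passed the test. Their junctions are shown here as a reference for the values that follow. The sequences are those of GENCODE release 29 transcripts on GRCh38, plus strand, 5′ to 3′. In the first, which covers chrMT:577-687, the capitals are MT-TF, the tRNA for phenylalanine, and the lower case is the first stretch of MT-RNR1. In the second, which covers chrMT:1562-1710, the capitals are MT-TV, the tRNA for valine, between the end of MT-RNR1 and the start of MT-RNR2. No base lies between neighbouring genes at either junction.
MT-TF to MT-RNR1: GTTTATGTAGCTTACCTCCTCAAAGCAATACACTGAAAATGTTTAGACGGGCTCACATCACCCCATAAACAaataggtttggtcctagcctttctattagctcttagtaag
MT-RNR1 to MT-RNR2: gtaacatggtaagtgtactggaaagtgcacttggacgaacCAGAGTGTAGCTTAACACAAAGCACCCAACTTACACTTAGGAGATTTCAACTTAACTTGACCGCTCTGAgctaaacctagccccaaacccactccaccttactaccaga

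MT-RNR1 (chrMT:648-1601), the rRNA of the small mitochondrial ribosomal subunit, was 894, 1115 and 1169 FPKM in the OV-BRCA1 samples and 332, 360 and 353 FPKM in the NC samples. The lowest OV-BRCA1 sample was far above the highest NC sample. Its mean was 1060 ± 146 FPKM in the OV-BRCA1 samples and 348 ± 14.4 FPKM in those of the NC group (SD, n = 3 each), which is 3.04-fold higher. The log2 fold change was 1.59 (standard error, SE, 0.10, limma, Benjamini-Hochberg adjusted p = 1.45e-04). Of the 16321 tested genes, 210 had a larger log2 fold change.

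MT-RNR2 (chrMT:1671-3229), the rRNA of the large subunit, was 1669, 1979 and 2042 FPKM in the OV-BRCA1 samples and 2183, 2435 and 2216 FPKM in the NC samples. The OV-BRCA1 samples were all below the NC samples, by a margin that was small beside the spread. The log2 fold change of -0.27 (SE 0.09) did not pass the test (limma, Benjamini-Hochberg adjusted p = 0.0563). It passed in the same test when the samples were scaled to nuclear protein-coding genes (-0.31, adjusted p = 0.0441) and with the replicate number as a block (-0.27, 0.0476). It did not pass without OV-BRCA1 replicate 1 (-0.18, 0.0822), without NC replicate 2 (-0.22, 0.149) or without the filter on low values (-0.27, 0.183).

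The rRNAs are encoded side by side and are equal in number in the ribosome, so their ratio was taken within each sample. MT-RNR1 over MT-RNR2 was 0.536, 0.564 and 0.572 in the OV-BRCA1 samples and 0.152, 0.148 and 0.159 in the NC samples. The ratio was close to constant within a group and separate between the groups, at 0.557 ± 0.0191 and 0.153 ± 0.00576 (SD, n = 3 each). An exact two-sided permutation test gave p = 0.1, the smallest value that 3 samples against 3 allow. Scaling of whole samples leaves this ratio as it is.

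MT-TF, which lies directly before MT-RNR1, was 83.3, 113 and 124 FPKM in the OV-BRCA1 samples and 57.9, 61.2 and 51.1 FPKM in the NC samples. Every OV-BRCA1 sample was above every NC sample, and the log2 fold change was 0.89 (SE 0.16, limma, Benjamini-Hochberg adjusted p = 0.00653). MT-TV, which lies directly after MT-RNR1, was 14.3, 21.4 and 18.1 FPKM in the OV-BRCA1 samples and 21.0, 23.8 and 21.4 FPKM in the NC samples. The groups of MT-TV overlapped, and its log2 fold change of -0.30 did not pass (adjusted p = 0.152 from the same test). Without OV-BRCA1 replicate 2 it was -0.43 (adjusted p = 0.0492), and without OV-BRCA1 replicate 1 it was -0.16 (adjusted p = 0.299). MT-TV rested on only 15.5, 24.0 and 17.1 estimated fragments in the OV-BRCA1 samples and 22.7, 30.2 and 28.5 in the NC samples. MT-TF and MT-RNR1 thus rose, and MT-TV and MT-RNR2, the next genes in the direction of transcription, did not. For MT-TV that reading rests on few fragments.

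Libraries were made from mRNA that had been captured on beads, so the level of an RNA with a short or absent poly(A) tail also depends on that step. A list of 5 nuclear small RNAs without a poly(A) tail (RN7SL1, RN7SL2, RN7SK, RMRP and RPPH1) is given for that reason. Their summed level was 380 to 487 FPKM in the OV-BRCA1 samples and 22.6 to 39.9 FPKM in the NC samples. RN7SL1, RN7SL2 and RN7SK rose by 3.02 to 4.72 on the log2 scale (adjusted p = 6.55e-05 to 2.41e-04, limma), where 2.89% of all tested genes were higher by more than 1. RMRP (28.5 to 34.4 FPKM against 0 to 1.29) and RPPH1 (13.3 to 15.9 against 0.193 to 1.66) passed the filter on low values only through the OV-BRCA1 samples, so no count is drawn from them. RN7SL1 and RN7SL2 are near-identical copies that can share reads. Other mitochondrial RNAs with a short or absent tail were lower, as were MT-RNR2 (-0.27 on the log2 scale, not passing) and MT-ND6 (-0.81). Of the 22 tRNAs, 20 had a log2 fold change below 0. The part of RNA capture in the rise of MT-RNR1 and MT-TF was not tested.

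**Figure D2:**
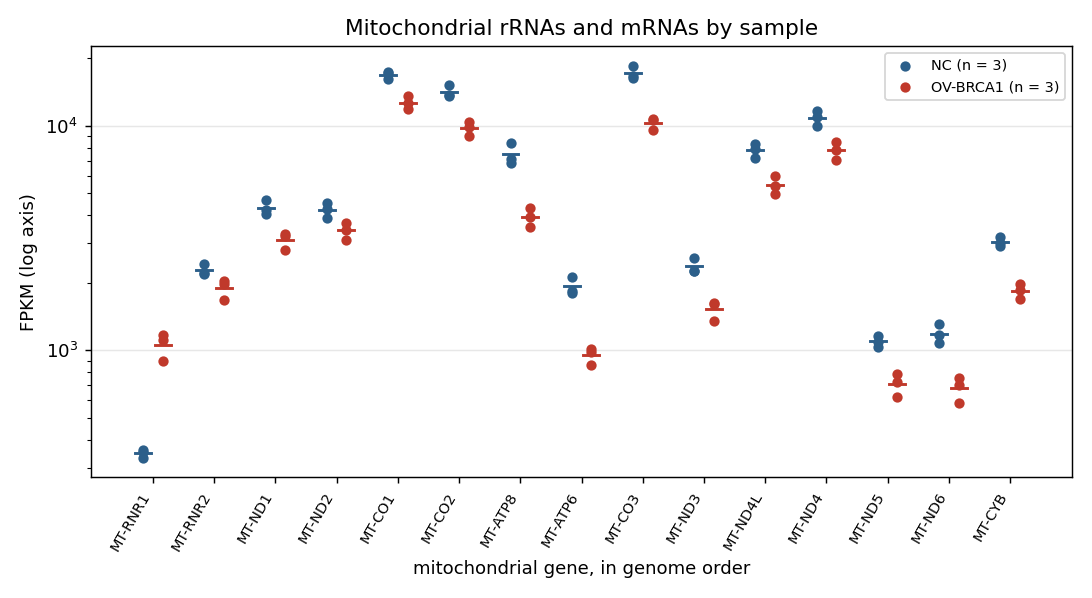
FPKM (log axis) of the 2 rRNAs and 13 mRNAs in genome order, 1 point per sample and a line at the mean of the 3 samples of each group. MT-RNR1 is higher in the OV-BRCA1 samples (894 to 1169 against 332 to 360), and in all 13 mRNAs and MT-RNR2 every OV-BRCA1 sample is below every NC sample.

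The 13 mRNAs summed to 57114, 66598 and 62832 FPKM in the OV-BRCA1 samples and to 91509, 99142 and 87186 FPKM in the NC samples. Of the 20 genes with the highest mean FPKM in the NC group, 14 were mitochondrial, and 11 of these were mRNAs. All 13 mRNAs fell (18.9% of all tested genes were lower), and in all 13 the groups were separate (27.4% of all tested genes, lower). Their median log2 fold change was -0.63, with a range from -1.01 to -0.31. Without the filter on low values 8 of the 13 passed, and MT-ND2, MT-CO1, MT-CO2, MT-ND4L and MT-ND4 did not. By the summed FPKM of a complex, the NC group was 1.41-fold above the OV-BRCA1 group for complex I, 1.65-fold for complex III, 1.47-fold for complex IV and 1.92-fold for the ATP synthase. Depth does not limit these values, as each mRNA and rRNA rested on 4829 to 494159 estimated fragments per sample, which covers counting error only.

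Complex I is the NADH dehydrogenase of the respiratory chain, and 7 of its subunits are mitochondrial. MT-ND1 (chrMT:3307-4262) was 2806, 3299 and 3223 FPKM in the OV-BRCA1 samples and 4208, 4659 and 4052 FPKM in the NC samples, a log2 fold change of -0.47 (SE 0.08). MT-ND4 (chrMT:10760-12137), the most abundant of these mRNAs, was 7071, 8451 and 7828 FPKM against 10995, 11620 and 10002 FPKM, and fell by 0.48 on the log2 scale. Neither gene came near to an overlap of the groups. MT-ND4L, which shares 7 bases with MT-ND4 and is translated from the same mRNA, fell by 0.52 on the log2 scale, and its FPKM was 0.699 ± 0.00757 of that of MT-ND4 in the OV-BRCA1 samples and 0.719 ± 0.00295 in those of the NC group (SD, n = 3 each). The log2 fold change was -0.64 for MT-ND3 and -0.63 for MT-ND5, the longest of the mRNAs. The adjusted p-values of these 5 genes were 0.00307 to 0.00627 from limma with Benjamini-Hochberg adjustment.

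MT-ND2 (chrMT:4470-5511) had the smallest fall of the 13. It was 3111, 3693 and 3451 FPKM in the OV-BRCA1 samples and 4260, 4517 and 3901 FPKM in the NC samples, so only a narrow gap parted the groups. Its log2 fold change was -0.31 (SE 0.08, limma, Benjamini-Hochberg adjusted p = 0.0291). The call was lost with scaling by the median of ratios (-0.27, adjusted p = 0.0504), and without OV-BRCA1 replicate 1 (-0.24, adjusted p = 0.0648), OV-BRCA1 replicate 3 (-0.32, 0.0745), NC replicate 1 (-0.30, 0.0787) or NC replicate 2 (-0.26, 0.0839).

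MT-ND6 (chrMT:14149-14673) is the only mRNA that is encoded on the opposite strand from the other 12. It was 585, 751 and 702 FPKM in the OV-BRCA1 samples and 1165, 1312 and 1082 FPKM in the NC samples, again without overlap. Its log2 fold change was -0.81 (SE 0.11, limma, Benjamini-Hochberg adjusted p = 0.0027). MT-ND6 mRNA is known to lack a poly(A) tail, and the part of RNA capture in its level was not tested. The use of strand in the counting is not given in the sources used here, so reads from MT-ND6 and from the opposite strand of the same stretch cannot be told apart.

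MT-CYB (chrMT:14747-15887) encodes cytochrome b, the only mitochondrial subunit of complex III. It was 1689, 1966 and 1862 FPKM in the OV-BRCA1 samples and 3004, 3192 and 2909 FPKM in the NC samples. The groups lay far apart, and the log2 fold change was -0.72 (SE 0.07, limma, Benjamini-Hochberg adjusted p = 5.88e-04).

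Complex IV, the cytochrome c oxidase, has 3 mitochondrial subunits, whose mRNAs were the most abundant of the 13. MT-CO1 (chrMT:5904-7445) was 11886, 13575 and 12622 FPKM in the OV-BRCA1 samples and 17194, 17433 and 16104 FPKM in the NC samples. MT-CO2 (chrMT:7586-8269) was 9044, 10423 and 9888 FPKM against 13752, 15237 and 13645 FPKM. MT-CO3 (chrMT:9207-9990) was 9591, 10764 and 10594 FPKM against 16688, 18570 and 16317 FPKM. The groups were separate in all 3, and MT-CO3 was about level with MT-CO1 in the NC samples but below it in each OV-BRCA1 sample. The log2 fold changes were -0.41, -0.54 and -0.74 in this order (SEs 0.06, 0.07 and 0.07, limma, Benjamini-Hochberg adjusted p = 0.0034, 0.00211 and 6.16e-04).

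Among the mRNAs, the largest falls were those of the ATP synthase. MT-ATP8 and MT-ATP6 are translated from 1 mRNA in different reading frames, and their genes share 46 bases. The shared bases are printed in capitals within chrMT:8507-8592, plus strand of GRCh38, because reads over them fit both genes. They run from the start codon of MT-ATP6 to the stop codon of MT-ATP8.
MT-ATP8 and MT-ATP6: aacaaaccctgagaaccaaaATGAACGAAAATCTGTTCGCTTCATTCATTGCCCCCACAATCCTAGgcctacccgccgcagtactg

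MT-ATP6 (chrMT:8527-9207) was 864, 1013 and 981 FPKM in the OV-BRCA1 samples and 1843, 2129 and 1805 FPKM in the NC samples. The NC mean was 2.02-fold above the OV-BRCA1 mean, and the log2 fold change was -1.01 (SE 0.09, limma, Benjamini-Hochberg adjusted p = 4.35e-04). It was the only mRNA past a log2 fold change of 1, and that mark was lost without OV-BRCA1 replicate 1 (-0.95) or NC replicate 2 (-0.94). MT-ATP8 (chrMT:8366-8572) was 3540, 4314 and 3935 FPKM against 7144, 8409 and 6862 FPKM, with a log2 fold change of -0.93 (SE 0.10, adjusted p = 0.00112 from the same test). Both genes were thus near to 1 on the log2 scale below the NC group, with every OV-BRCA1 sample lower.

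MT-ATP6 has a near-identical nuclear copy, so the placement of reads could alter its level. MTATP6P1 on chromosome 1 matches MT-ATP6 in 671 of 681 bases, with a longest identical run of 141 bases. A window in which 4 of 100 bases differ is shown for both, with the differing bases in capitals. It covers chrMT:8619-8718 and chr1:633788-633887, plus strand of GRCh38.
MT-ATP6: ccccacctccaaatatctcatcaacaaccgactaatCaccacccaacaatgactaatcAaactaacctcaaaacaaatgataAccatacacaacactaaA
MTATP6P1: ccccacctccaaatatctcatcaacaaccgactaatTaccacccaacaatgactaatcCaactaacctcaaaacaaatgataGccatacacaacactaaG

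MTATP6P1 was 745, 928 and 837 FPKM in the OV-BRCA1 samples and 1637, 1710 and 1493 FPKM in the NC samples. It fell with MT-ATP6, by 0.95 on the log2 scale, and its mean was 83.7% of that of MT-ATP6 in the NC group and 87.8% in the OV-BRCA1 group. MT-CO3, which directly follows MT-ATP6 on the chromosome, was 8.93-fold above MT-ATP6 in the NC group and 10.8-fold above it in the OV-BRCA1 group. Reads from the mitochondrial mRNA that were placed on the copy and transcription of the copy cannot be told apart here. With the nuclear copies added to each gene, the log2 fold change of MT-ATP6 was -0.98 (limma, Benjamini-Hochberg adjusted p = 4.84e-04). The direction and the call stayed, and the fold change moved to just under 1.

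Several mitochondrial genes end within their stop codon, which the poly(A) tail then completes. The last 30 bases of 4 mRNAs are shown, on the strand of the gene in GRCh38, with the bases of the stop codon in capitals. MT-CO3 (chrMT:9961-9990) and MT-ND4 (chrMT:12108-12137) end on a single base of it, and MT-CO2 (chrMT:8240-8269) and MT-ND6 (chrMT:14149-14178, minus strand) on a whole codon.
MT-CO3: tgtatgtctccatctattgatgagggtctT
MT-ND4: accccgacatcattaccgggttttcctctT
MT-CO2: tttgaaatagggcccgtatttaccctaTAG
MT-ND6: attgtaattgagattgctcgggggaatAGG

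By the lengths of the genes, 6 of the 13 mRNAs had an incomplete stop codon (MT-ND1, MT-ND2, MT-CO3, MT-ND3, MT-ND4 and MT-CYB) and 7 a complete one. The median log2 fold change was -0.56 in the former, with a range from -0.74 to -0.31. It was -0.63 in the latter, with a range from -1.01 to -0.41. The ranges overlapped, and mRNAs of both kinds fell.

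To see which mRNAs fell more or less than the others, the test was repeated after each sample had been divided by its summed mitochondrial mRNA FPKM, a step added after the values had been seen. The sum holds the mRNAs themselves and is led by the most abundant of them. On this scale MT-ND2 (0.27, adjusted p = 0.00825) and MT-CO1 (0.16, 0.0471) were higher in the OV-BRCA1 group. MT-ATP6 (-0.44, 0.00164), MT-ATP8 (-0.35, 0.0032), MT-ND6 (-0.23, 0.0399) and MT-CO3 (-0.16, 0.0426) were lower, all from limma with Benjamini-Hochberg adjustment. The other 7 mRNAs did not pass. The falls were therefore unequal, with the ATP synthase mRNAs below the rest. Of all tested genes, 51.2% were higher and 2.29% lower on this scale. MT-RNR1 was higher by 2.17 and MT-RNR2 by 0.31 (adjusted p = 0.0103).

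The 22 tRNA genes are 59 to 75 bases long, shorter than a usual sequenced fragment, and mature tRNAs carry no poly(A) tail. Whether their fragments came from mature tRNAs or from longer precursor RNAs cannot be told apart. Their levels spanned a wide range, from 2.56 FPKM for MT-TW to 3594 FPKM for MT-TC, both in NC samples. The 4 genes MT-TA, MT-TN, MT-TC and MT-TY, which form a light-strand cluster between MT-TW and MT-CO1, held 575 to 2844 FPKM in the OV-BRCA1 samples and 719 to 3594 FPKM in the NC samples. None of the other 18 tRNAs exceeded 561 FPKM in the OV-BRCA1 samples or 651 FPKM in the NC samples. Per tRNA and sample, 2.91 to 4318 fragments were estimated, and 7 tRNAs had under 20 in at least 1 sample.

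At an adjusted p below 0.05, 9 of the 22 tRNAs were lower in the OV-BRCA1 group, MT-TF was higher and 12 did not pass, beside 18.9% lower and 16.4% higher among all tested genes. In 11 tRNAs all OV-BRCA1 samples were below all NC samples (27.4% of all tested genes), in MT-TF they were above (23.4%), and in 10 the groups overlapped. The median log2 fold change of the tRNAs was -0.28. Without the filter on low values 5 tRNAs passed in place of 10, and MT-TA, MT-TC, MT-TY, MT-TR and MT-TT did not. On the light strand all 8 tRNAs had a log2 fold change below 0, with a median of -0.35, and 6 passed the test as lower. On the heavy strand 12 of 14 were below 0, with a median of -0.22, and 3 passed as lower. This difference between the strands was not tested, and without the strand setting of the counting the reads of a tRNA and of the opposite strand cannot be told apart. No tRNA passed a log2 fold change of 1 together with the test, but MT-TF did without OV-BRCA1 replicate 1 (1.06), and MT-TE did without OV-BRCA1 replicate 2 (-1.04) or NC replicate 1 (-1.02).

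**Figure D3:**
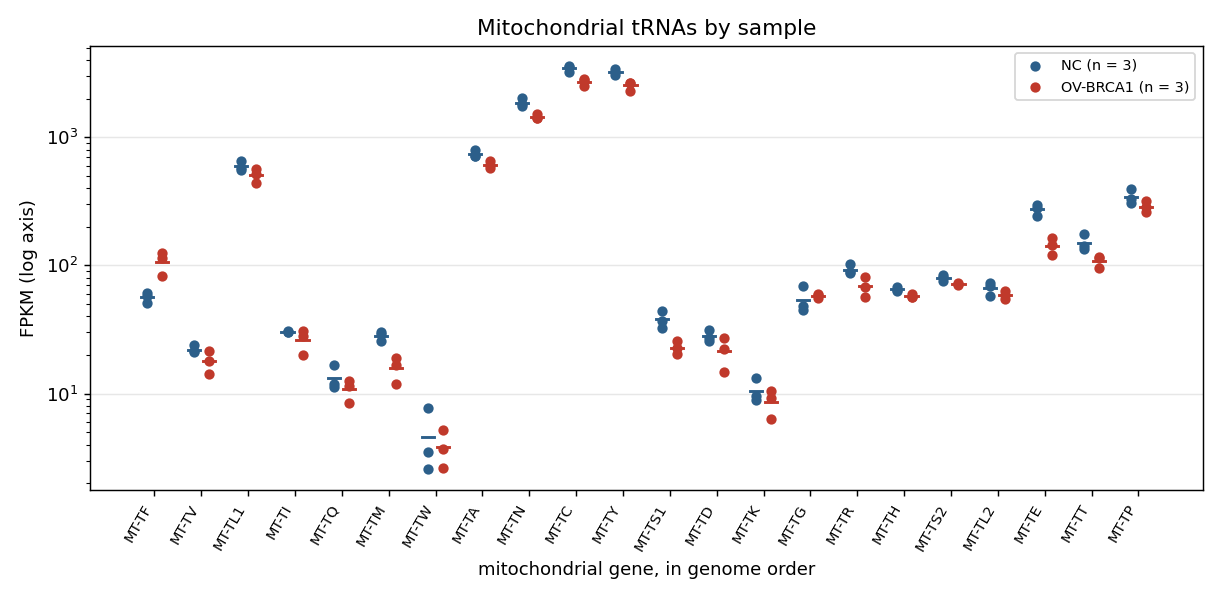
FPKM (log axis) of the 22 tRNA genes in genome order, 1 point per sample and a line at the mean of the 3 samples of each group. MT-TF is higher in the OV-BRCA1 samples (83.3 to 124 against 51.1 to 61.2), MT-TE is lower (121 to 163 against 244 to 294), and MT-TW has the lowest levels and the widest relative scatter.

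MT-TE, the tRNA for glutamate, lies on the light strand directly upstream of MT-ND6. It was 121, 163 and 144 FPKM in the OV-BRCA1 samples and 244, 294 and 283 FPKM in the NC samples, with no overlap. Its log2 fold change of -0.94 was the lowest of the tRNAs (SE 0.12, limma, Benjamini-Hochberg adjusted p = 0.00223). MT-TE over MT-ND6 was 0.210 ± 0.00633 in the OV-BRCA1 samples and 0.232 ± 0.0268 in those of the NC group (SD, n = 3 each), and an exact two-sided permutation test of the ratio gave p = 0.2.

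MT-TM, the tRNA for methionine, was 16.6, 18.9 and 11.9 FPKM in the OV-BRCA1 samples and 30.2, 29.3 and 25.7 FPKM in the NC samples. MT-TS1, a tRNA for serine that lies beside MT-CO1 on the opposite strand, was 25.6, 22.7 and 20.3 FPKM against 37.1, 32.4 and 44.3 FPKM. Both were separate between the groups at these low levels. Their log2 fold changes were -0.82 and -0.70 (SEs 0.16 and 0.13, limma, Benjamini-Hochberg adjusted p = 0.0106 and 0.00892).

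The tRNAs of the light-strand cluster fell by similar amounts. MT-TC, for cysteine, was 2507, 2844 and 2777 FPKM in the OV-BRCA1 samples and 3594, 3559 and 3226 FPKM in the NC samples. The log2 fold change was -0.35 for MT-TC, -0.34 for MT-TY (tyrosine), -0.36 for MT-TN (asparagine) and -0.28 for MT-TA (alanine), with adjusted p-values of 0.00772 to 0.0174 from limma with Benjamini-Hochberg adjustment. The call of MT-TA was lost without OV-BRCA1 replicate 3 (-0.24, adjusted p = 0.0539).

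MT-TT (threonine) was 96.0, 116 and 115 FPKM in the OV-BRCA1 samples and 135, 175 and 141 FPKM in the NC samples, and MT-TR (arginine) was 57.0, 67.8 and 81.7 FPKM against 86.9, 102 and 89.7 FPKM. Their groups were separate by narrow gaps. The log2 fold changes were -0.46 and -0.44 (limma, Benjamini-Hochberg adjusted p = 0.0275 and 0.0472). The call of MT-TT was lost without OV-BRCA1 replicate 1 or 3 (adjusted p = 0.0709 and 0.0537) and without NC replicate 2 or 3 (0.0506 and 0.0516). That of MT-TR was lost in 5 of the 6 cases in which a sample was left out, with OV-BRCA1 replicate 3 as the exception, at adjusted p-values up to 0.128. It was also lost with scaling by the median of ratios (adjusted p = 0.062).

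The 12 tRNAs that did not pass had log2 fold changes of -0.41 to 0.12 and adjusted p-values of 0.0522 to 0.799. MT-TH (57.2 to 59.9 FPKM against 62.6 to 67.9) and MT-TS2 (69.9 to 72.4 against 75.0 to 84.5) were separate between the groups but differed by only -0.16 and -0.17 on the log2 scale. Both passed with scaling to nuclear protein-coding genes (adjusted p = 0.0264 and 0.0295), and MT-TS2 also without NC replicate 1 (0.0321). MT-TG was 55.3, 58.5 and 60.2 FPKM in the OV-BRCA1 samples and 44.7, 48.1 and 69.6 FPKM in the NC samples. It was the only tRNA besides MT-TF with a log2 fold change above 0 (0.12), and it passed without NC replicate 3, at 0.32 (limma, Benjamini-Hochberg adjusted p = 0.0245). With each sample left out in turn, the log2 fold change of MT-TG ran from 0.00211 to 0.32, at adjusted p-values up to 0.994 from the same test. The groups overlapped in MT-TL1 (-0.23), MT-TI (-0.22), MT-TQ (-0.27), MT-TD (-0.41), MT-TK (-0.27), MT-TL2 (-0.17) and MT-TP (-0.26), given here as log2 fold changes, and none of these passed. Leaving out 1 sample moved these values widely, as from -0.33 to -0.04 for MT-TI, -0.60 to -0.18 for MT-TD and -0.40 to -0.08 for MT-TK. MT-TW, at 2.64 to 5.19 FPKM and 2.56 to 7.70 FPKM, was too low to compare.

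Mitochondrial DNA is copied, transcribed and its RNA processed by proteins that are all made from nuclear genes, so a list of 49 such genes was read beside the transcripts. All 49 passed the filter, 14 were higher in the OV-BRCA1 group, 5 were lower and 30 did not pass. The share passing in either direction was 38.8%, against 35.3% of all tested genes. By direction, 28.6% of the list was higher against 16.4% of all tested genes, and 10.2% was lower against 18.9%. The median log2 fold change was 0.16. The number passing fell from 19 to 12 without OV-BRCA1 replicate 1, NC replicate 1 or NC replicate 3, and to 11 with the replicate number as a block. The 5 lower genes, named after their values had been seen, were FASTK, FASTKD1, HSD17B10, MTERF2 and POLG.

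PNPT1, the polynucleotide phosphorylase that degrades RNA in mitochondria, was 56.9, 50.2 and 59.1 FPKM in the OV-BRCA1 samples and 16.3, 14.8 and 15.8 FPKM in the NC samples. The groups were far apart, with a log2 fold change of 1.76 (SE 0.08, limma, Benjamini-Hochberg adjusted p = 3.07e-05), the only one of the list past 1, though 164 tested genes rose more. PNPT1 is also known as a gene that interferon induces. Its partner in RNA decay, the helicase SUPV3L1, rose by 0.22 on the log2 scale.

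LRPPRC, which binds and stabilises mitochondrial mRNAs, was 39.3, 37.3 and 38.1 FPKM in the OV-BRCA1 samples and 27.0, 26.3 and 26.7 FPKM in the NC samples. It rose by 0.50 on the log2 scale (SE 0.05, limma, Benjamini-Hochberg adjusted p = 6.45e-04). FASTK, an RNA-binding protein with a mitochondrial form needed for MT-ND6 mRNA, was 32.9, 43.3 and 33.4 FPKM against 72.3, 68.9 and 69.9 FPKM. Its log2 fold change was -0.94 (SE 0.11, adjusted p = 0.00138 from the same test), and -1.06 without OV-BRCA1 replicate 2.

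Among the genes of transcription and processing, TFAM, which packages mitochondrial DNA and starts its transcription, was 19.9, 18.4 and 21.1 FPKM in the OV-BRCA1 samples and 14.6, 13.9 and 14.7 FPKM in the NC samples (log2 fold change 0.43, adjusted p = 0.00473). MRPL12, a ribosomal protein that also binds the mitochondrial RNA polymerase, rose by 0.26 on that scale (adjusted p = 0.00916). The mitochondrial RNase P cuts at the front end of tRNAs. Of its subunits, TRMT10C rose by 0.47 (adjusted p = 0.00162), HSD17B10 had a value of -0.44 (adjusted p = 0.0048), and the catalytic subunit PRORP did not pass (-0.13, adjusted p = 0.782). MRM1, which methylates the large rRNA, rose by 0.30 (adjusted p = 0.0122), all from limma with Benjamini-Hochberg adjustment. In each of these genes other than PRORP the groups were separate.

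**Figure D4:**
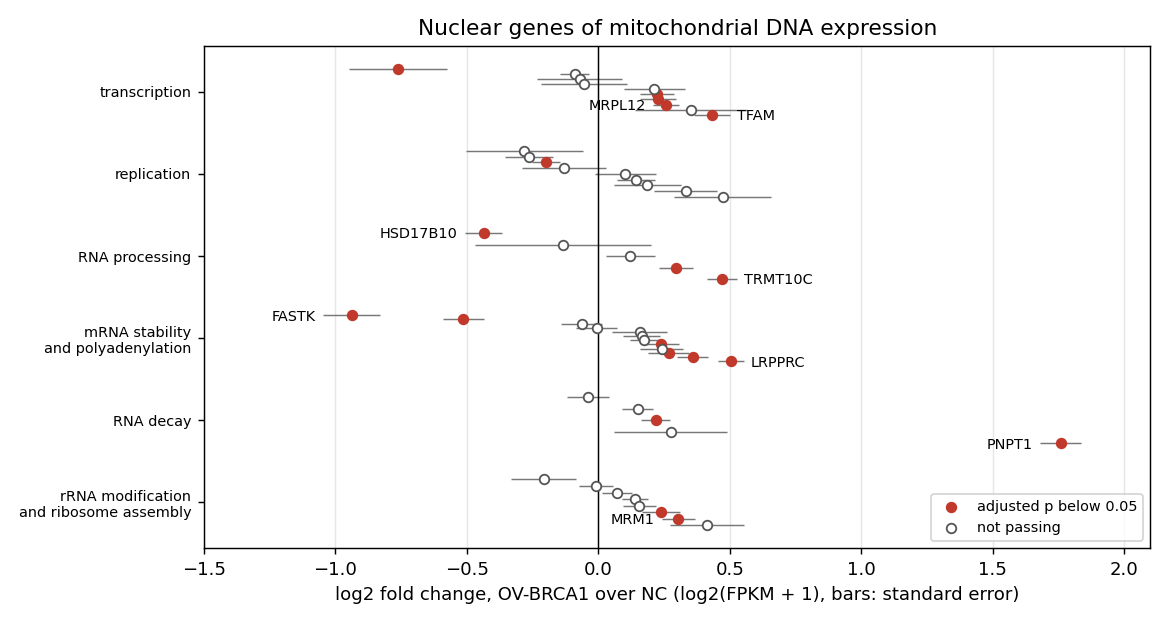
Log2 fold change (OV-BRCA1 over NC, log2(FPKM + 1) scale, bars are standard errors) of the 49 nuclear genes for mitochondrial DNA expression, in rows by role, with filled points for an adjusted p below 0.05. PNPT1 (1.76) stands alone at the right, FASTK (-0.94) is lowest, and most genes lie within 0.5 of 0.

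The respiratory chain is built from mitochondrial and nuclear subunits together. Of 76 nuclear subunit genes, all tested, 41 were lower in the OV-BRCA1 group, 1 was higher and 34 did not pass, where 18.9% of all tested genes were lower and 16.4% higher. The median log2 fold change was -0.31, and 14 of the 76 had a value above 0. The lower ones were 17 of 37 in complex I, 1 of 4 in complex II, which has no mitochondrial subunit, 5 of 9 in complex III, 10 of 11 in complex IV and 8 of 15 in the ATP synthase. ATP5MC2, of the membrane ring of the ATP synthase, had the largest fall (-0.83, adjusted p = 0.00694), and ATP5F1C, of its central stalk, was the 1 that rose (0.25, limma, Benjamini-Hochberg adjusted p = 0.0103). The median was -0.63 for the 13 mitochondrial mRNAs. Both sets of values come from the same 6 samples and are not independent of each other.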

How the data were processed

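RNA of SiHa cells was sequenced in 3 OV-BRCA1 and 3 NC samples. Libraries were made from bead-captured mRNA. The authors normalized read counts to FPKM and deposited 199167 transcripts of 58174 genes, and the files of single samples held the same values as the table of the series. The submitters' processing notes name HISAT2, FastQC and hg38. The quantification tool, annotation and use of strand are not given in the sources used here. No counts were used, so the test of counts by the authors (DESeq) could not be repeated.

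FPKM was summed per gene. GENCODE release 29 gave names, positions and sequences, with 198868 transcripts matched (98.7% at the same position) and 338 genes left without a name. Genes reaching 0.5 FPKM in 3 or more samples were tested on log2(FPKM + 1) with limma 3.58.1 (trend, not robust, R 4.3.3), without covariates. This scale understates the change of low genes. Calls were made at an adjusted p below 0.05 and, separately, with an absolute log2 fold change above 1. Simulated data with known changes served to check the test. For the depth, the value of 1 fragment was read from the low values of 14205 single-transcript nuclear genes of 600 to 5000 bases. As only 36.2% to 38.4% of the low values lay within 0.1 of a whole fragment, whole reads were not recovered. Python 3.11.15 with scipy 1.17.1 gave exact tests, and biopython 1.88 aligned the nuclear copies.

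The text names all mRNAs and rRNAs, tRNAs past the filter, nuclear copies past the filter, up to 8 genes of the machinery list by adjusted p with at most 2 per role first, and the largest rise and fall of the nuclear subunits. SUPV3L1, PRORP, FASTKD1, MTERF2, POLG, the cell type markers and the small RNAs without poly(A) tails fall outside that rule. The members and lists were chosen with earlier results of these data known. Alternatives were a pseudocount of 0.1, no filter, scaling to nuclear protein-coding genes or by the median of ratios, a replicate block and leaving out each sample. Adding nuclear copies was chosen after seeing the data.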

Additional observations from a re-analysis of the deposited data

How the results depend on the processing

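The 13 mRNAs were lower and MT-RNR1 and MT-TF higher under all alternatives run, with log2 fold changes of 1.52 to 1.71 for MT-RNR1. Of 532 single-gene comparisons, 496 kept direction and call, 27 lost the call, 7 gained it and 2 turned, both of MT-TW (0.06 with OV-BRCA1 replicate 2 left out, 0.24 with NC replicate 2 left out, and from -0.41 to 0.24 over all samples left out in turn). Without the filter on low values, 8 mRNAs and 5 tRNAs passed in place of 13 and 10, and the cause was not tested. Past a log2 fold change of 1, 0 mRNAs remained in place of 1 with scaling by the median of ratios or with the nuclear copies added. Scaling to nuclear protein-coding genes gave 2 rRNAs in place of 1. With each sample left out in turn, 12 to 13 mRNAs, 8 to 10 tRNAs and 12 to 15 genes of the machinery list passed, and past a log2 fold change of 1 there were 0 to 1 mRNAs, 0 to 1 tRNAs and 1 to 2 machinery genes. These fits leave a group with 2 samples. Over all tested genes, samples with the same replicate number did not deviate together (r = -0.02, 0.02 and 0.01). This does not settle pairing for the mitochondrial genes, whose summed mRNA level was highest in replicate 2 of both groups (66598 and 99142 FPKM). With the replicate number as a block, 13 mRNAs, 2 rRNAs, 9 tRNAs and 11 in place of 19 machinery genes passed, and MT-TR lost its call (adjusted p = 0.0533). All-gene medians stayed within -0.07 to -0.01 under the scalings. Depth limits the low tRNAs most.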

Other observations

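Other mitochondrial genes also have nuclear copies with FPKM above the filter, and reads misplaced from the mitochondrial RNA and transcription of the copies cannot be told apart. Of 407 genes named as such copies, 17 passed the filter, 6 of them were lower in the OV-BRCA1 group and 0 higher at an adjusted p below 0.05 from limma with Benjamini-Hochberg adjustment, where 18.9% of all tested genes were lower and 16.4% higher. The 7 on chromosome 1 are the closest, with 97.6% to 99.1% identity over the aligned bases. MTND2P28 was 654, 791 and 788 FPKM in the OV-BRCA1 samples and 873, 1001 and 782 FPKM in the NC samples, 21.8% and 21.0% of the mean of MT-ND2. MTCO1P12 was 535, 563 and 615 FPKM against 775, 1032 and 885 FPKM, which in the NC group was 5.31% of MT-CO1, with a log2 fold change of -0.64 (adjusted p = 0.0061, limma). MTCO3P12 and MTND1P23 were below 80 FPKM and MTCO2P12 and MTATP8P1 below 20 FPKM in all samples. The 10 copies on other chromosomes, MTND4P12, MTCO2P2, MTND4LP30, MTND4LP1, MTND4P24, MTATP6P29, MTND3P23, MTND6P4, MTCO1P40 and MTRNR2L12, reached 16.2 FPKM at most.

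MT-TF over MT-TV, the tRNAs at either side of MT-RNR1, was 5.84, 5.29 and 6.87 in the OV-BRCA1 samples and 2.76, 2.57 and 2.39 in the NC samples (exact two-sided permutation p = 0.1, the smallest that 3 against 3 allow). In this ratio MT-TV rested on only 15.5 to 24.0 estimated fragments per OV-BRCA1 sample and 22.7 to 30.2 per NC sample. The longest run of A is 6 bases in MT-RNR1 and 7 in MT-RNR2, which both lie within the 3 to 8 bases of the mRNAs.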
